A study of Mus musculus with 24 samples.

Results

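A set of 9 genes was followed that handle retinoids, the vitamin A derivatives, in cultured mouse fibroblasts: the binding proteins Crabp1 and Crabp2, the receptor gene Rarb, the synthesis enzymes Aldh1a1, Aldh1a2 and Aldh1a3, the breakdown enzyme Cyp26b1 and the retinoid dehydrogenases Dhrs3 and Dhrs9. The 9 genes were picked by symbol from a table of 45706 genes because of their levels in these same libraries, so their levels are given as a description with no test. Per the labels, the cells were MEFs (mouse embryonic fibroblasts, primary cells that grow out when an embryo is minced and plated) of the strain C57B1/6, either lacking cGAS, an enzyme that senses DNA in the cytosol (KO), or wild type (WT). Bulk populations of both genotypes had been passaged under 20% oxygen and were harvested on day 33 (passage 11), day 36 (passage 12) and day 42 (passage 14). The sources used here name neither the knockout allele nor how many embryos each population came from. Each of the 6 groups has 4 deposited columns, which differed by no more than sampling noise; they were summed and counted as 1 sample, leaving n = 3 libraries for a genotype, each from another day. Levels are given as CPM (counts scaled to a common library size) in the order of days 33, 36 and 42.

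Cells take up retinol, oxidise it reversibly to retinaldehyde through alcohol and short-chain dehydrogenases, and oxidise retinaldehyde irreversibly to retinoic acid through the ALDH1A enzymes. CRABP proteins bind retinoic acid in the cytoplasm, CYP26 enzymes hydroxylate it for clearance, and nuclear receptors of the RAR and RXR families bind it and switch on genes that carry retinoic acid response elements. Rarb, Crabp2, Dhrs3 and the Cyp26 genes are themselves textbook responders to retinoic acid in several tissues, and in mesenchyme of the embryo retinoic acid is a patterning signal.

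The response element best known among these genes lies in the promoter of Rarb, and it is shown beside the promoters of Crabp1, the gene with the largest difference on a single day, Dhrs9, the gene with the largest mean difference, and Cyp26b1, the 1 gene higher in KO cells by over 2-fold on average. RefSeq promoter entries on GRCm38.p6 were found for 7 of the 9 genes, and each sequence holds the 250 bases before a RefSeq start, read 5′ to 3′ on the gene's strand. Capitals mark half-sites of a response element on either strand, which are the hexamer AGGTCA or its variants with the letters AGTTCA or with GGGTCA or with GGTTCA. The windows are chr14:16575477-16575726 on the minus strand for Rarb, chr9:54764498-54764747 on the plus strand for Crabp1, chr6:84593811-84594060 on the minus strand for Cyp26b1 and chr2:69380212-69380461 on the plus strand for Dhrs9.
Rarb: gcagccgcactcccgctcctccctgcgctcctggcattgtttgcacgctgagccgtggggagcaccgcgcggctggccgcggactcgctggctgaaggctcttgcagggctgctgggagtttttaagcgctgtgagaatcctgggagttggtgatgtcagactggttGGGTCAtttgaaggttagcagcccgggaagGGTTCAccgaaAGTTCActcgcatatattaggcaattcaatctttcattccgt
Crabp1: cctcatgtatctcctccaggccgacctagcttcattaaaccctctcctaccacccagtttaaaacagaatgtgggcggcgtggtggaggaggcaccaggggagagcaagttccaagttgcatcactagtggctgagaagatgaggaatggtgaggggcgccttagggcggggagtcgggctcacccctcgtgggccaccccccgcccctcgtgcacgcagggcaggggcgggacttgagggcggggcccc
Cyp26b1: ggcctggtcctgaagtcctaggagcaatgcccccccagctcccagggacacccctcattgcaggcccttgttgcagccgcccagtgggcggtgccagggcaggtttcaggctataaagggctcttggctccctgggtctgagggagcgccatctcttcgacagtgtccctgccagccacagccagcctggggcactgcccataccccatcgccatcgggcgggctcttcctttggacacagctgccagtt
Dhrs9: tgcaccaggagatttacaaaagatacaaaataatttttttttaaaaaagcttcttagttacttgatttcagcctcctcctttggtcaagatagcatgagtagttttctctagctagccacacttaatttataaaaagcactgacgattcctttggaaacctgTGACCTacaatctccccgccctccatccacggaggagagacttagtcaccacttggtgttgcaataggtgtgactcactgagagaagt
The Rarb window held 3 half-sites, of which a pair in the same direction with 5 bases between them (a DR5 element) read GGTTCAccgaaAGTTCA and spanned positions -53 to -37 from the start (chr14:16575513-16575529). A DR5 pair was present in 0.0883% of 32851 promoter windows of the same length, and a pair with 2 bases between (DR2) in 0.174%. A single half-site was present in 38.6% of the windows, so the 1 half-site of Dhrs9, on the minus strand at position -88, is common. No half-site was found in the windows shown for Crabp1 and Cyp26b1. Among all 10 windows of the 7 genes, a DR5 pair was found in that of Rarb alone and a DR2 pair in 0. These matches describe letters in a short window and not binding.

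The 6 libraries held 25651250 to 48717439 counts, of which the smallest was KO day 36. Mb21d1, which encodes cGAS, was at 0.239, 0 and 0.127 CPM in KO cells and at 4.74, 4.08 and 4.82 CPM in WT cells, so the libraries matched their labels. Xist, transcribed from an inactive X chromosome, was at 465 to 641 CPM in KO cells and at 0.0573 to 0.363 CPM in WT cells, so that genotype and the sex of the embryos cannot be told apart in any KO and WT difference below. Y-linked RNA was lower in KO cells but present. Uty was at 2.69 to 2.91 CPM in KO cells and 29.9 to 32.0 CPM in WT cells. Ddx3y was at 38.3 to 45.05 CPM in KO cells and 122.5 to 165.8 CPM in WT cells. Whether the KO population held cells of both sexes was not tested. All 9 fibroblast markers were detected in every library, with a summed level, mostly Col1a1, Col1a2 and Vim, of 20930 to 26550 CPM in KO cells and 25740 to 27330 CPM in WT cells. Thy1 averaged 508 CPM in KO cells and 1102 CPM in WT cells and Dcn 12.9 CPM in KO cells and 88.6 CPM in WT cells, both with no overlap between the genotypes. Pdgfra averaged 26.3 CPM in KO cells and 81.4 CPM in WT cells and Lum 1.21 CPM in KO cells and 10.1 CPM in WT cells, with overlap. The 9 macrophage markers summed to 32.4, 5.71 and 5.05 CPM in KO cells and to 67.0, 16.3 and 7.05 CPM in WT cells. Fcer1g was at 0 counts in KO day 36, and Adgre1, C1qa, C1qb and Tyrobp were at 0 counts in KO day 42. The epithelial list summed to 44.3 to 65.2 CPM in KO cells and 25.2 to 58.2 CPM in WT cells, the endothelial list to 6.795 to 11.9 CPM in KO cells and 13.4 to 15.0 CPM in WT cells, and the neural and glial list to 289 to 501 CPM in KO cells and 204 to 387 CPM in WT cells. Members of each of these lists did not move together. Krt19 averaged 32.5 CPM in KO cells and 15.0 CPM in WT cells, and Krt5 17.8 CPM in KO cells and 28.1 CPM in WT cells. Kdr and Sox2 were lower in all KO libraries than in all WT libraries, and Cdh5 and Sox10 were higher in all KO libraries.

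Averaged over the 3 days on the log2 scale, 7 of the 9 genes were at least 2-fold lower in KO cells than in WT cells, 1 was at least 2-fold higher and 1, Aldh1a3, was within 2-fold. Among all 17233 genes tested, 6.66% were at least 2-fold lower and 2.44% at least 2-fold higher by the same measure. The median log2 difference was -1.56 over the 9 genes and -0.003 over all genes tested. The levels of all 3 KO libraries lay below those of all 3 WT libraries for Crabp2, Rarb, Aldh1a1 and Dhrs9, and above them for Cyp26b1; among all genes tested such a separation was found downward in 17.1% and upward in 17.2%. The other 4 genes, Crabp1, Aldh1a2, Aldh1a3 and Dhrs3, had overlapping levels. All 9 genes passed the filter on low counts, and since they were chosen on these levels nothing is inferred from the counts. In this bulk RNA, fewer cells of a type and less RNA per cell cannot be told apart.

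The direction was the same on every day for 7 genes and changed with the day for Crabp1 and Aldh1a2. Among the 7, the day 36 ratio of Aldh1a3, 1.11, lay within counting error (0.813 to 1.51). On day 33, 2 genes were at least 2-fold higher in KO cells (Aldh1a3 and Cyp26b1) and 3 lower (Crabp1, Crabp2 and Dhrs9), against 3.23% higher and 6.27% lower among all genes. On day 36, Cyp26b1 was the 1 higher gene and 6 were lower, against 4.02% and 7.43%. On day 42, Crabp1 and Cyp26b1 were higher and 6 were lower, against 3.78% and 9.58%. The 6 lower genes on both later days were Crabp2, Rarb, Aldh1a1, Aldh1a2, Dhrs3 and Dhrs9.

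**Figure D1:**
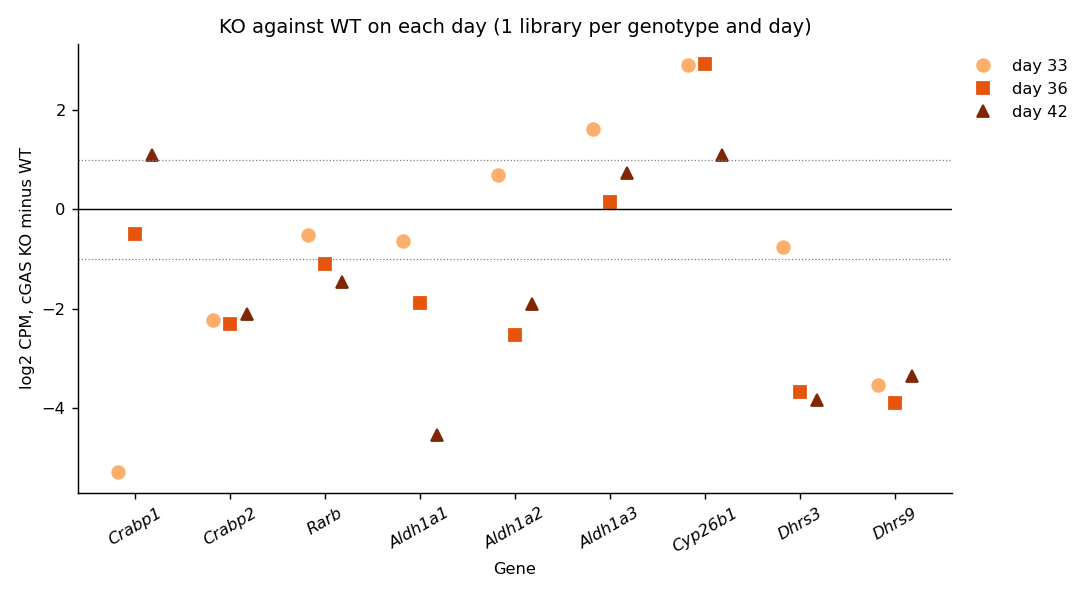
Difference in log2 CPM of KO minus WT (vertical axis) for each of the 9 genes on days 33, 36 and 42, with each point from 1 KO and 1 WT library; dotted lines mark 2-fold. Crabp1 runs from -5.29 on day 33 to 1.09 on day 42 and Aldh1a1 from -0.64 to -4.53, while Crabp2 stays between -2.31 and -2.11 and Dhrs9 between -3.90 and -3.34.

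Crabp1 (ENSMUSG00000032291, GRCm38 chromosome 9, 54764748 to 54773110, plus strand) encodes a cytoplasmic protein that binds retinoic acid. It was at 2.84, 50.3 and 30.2 CPM in KO cells (95, 1348 and 1189 counts) and at 113, 70.7 and 14.2 CPM in WT cells (5283, 3083 and 494 counts). The lowest library was KO day 33 and the highest WT day 33, the later KO libraries lay between the WT libraries, and the genotypes overlapped. Against day 33 its level moved in opposite directions: in KO cells day 36 was 17.7-fold above it (exact 95% counting interval 14.4 to 22.0) and day 42 was 10.6-fold above it (8.60 to 13.2), while in WT cells day 36 was 1.60-fold below it (1.53 to 1.67) and day 42 was 7.97-fold below it (7.26 to 8.76). Between days 36 and 42 it fell in both, by 1.67-fold in KO cells (1.54 to 1.81) and by 4.99-fold in WT cells (4.54 to 5.50). All counting intervals here cover counting error only. KO cells were 39.7-fold lower than WT cells on day 33 (32.4 to 49.2), 1.41-fold lower on day 36 (1.32 to 1.50) and 2.13-fold higher on day 42 (1.92 to 2.37). All neighbours in the order of the 6 libraries differed beyond counting error. The mean log2 difference of KO minus WT, -1.56, rested on single libraries. Leaving out KO day 33 gave -0.31 and leaving out WT day 33 gave -0.95, whereas with KO day 36 left out it was -2.37 and with WT day 42 left out -2.45. The 5 mesothelial markers on the marker list summed to 2.96, 8.17 and 6.64 CPM in KO cells and to 6.96, 9.95 and 4.64 CPM in WT cells. The markers did not move together: Upk1b was lower in all KO libraries than in all WT libraries (mean 1.75 CPM in KO cells and 5.63 CPM in WT cells), and Msln (1.27 CPM in KO cells and 0.473 CPM in WT cells) and Wt1 (2.55 CPM in KO cells and 0.489 CPM in WT cells) were higher in all KO libraries. Of these markers Lrrn4 was at 0 counts on days 36 and 42 in both genotypes. The part of such cells in the levels of Crabp1 was not tested.

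Crabp2 (ENSMUSG00000004885, chromosome 3, 87948666 to 87953376, plus strand) encodes the family member that carries retinoic acid to its nuclear receptors. It was at 6.16, 3.43 and 2.26 CPM in KO cells (206, 92 and 89 counts) and at 28.9, 17.2 and 9.92 CPM in WT cells (1352, 751 and 346 counts). All KO libraries lay below all WT libraries, and within each genotype the level was lower on each later day. KO cells were 4.69-fold lower on day 33 (4.04 to 5.45), 5.02-fold lower on day 36 (4.04 to 6.30) and 4.395-fold lower on day 42 (3.47 to 5.61), intervals that overlap. Day 42 was 2.73-fold below day 33 in KO cells (2.12 to 3.54) and 2.91-fold below it in WT cells (2.59 to 3.29). The mean over days was 3.95 ± 2.0 CPM in KO cells and 18.7 ± 9.56 CPM in WT cells (SD, n = 3 each), the SD here including the decline with time.

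**Figure D2:**
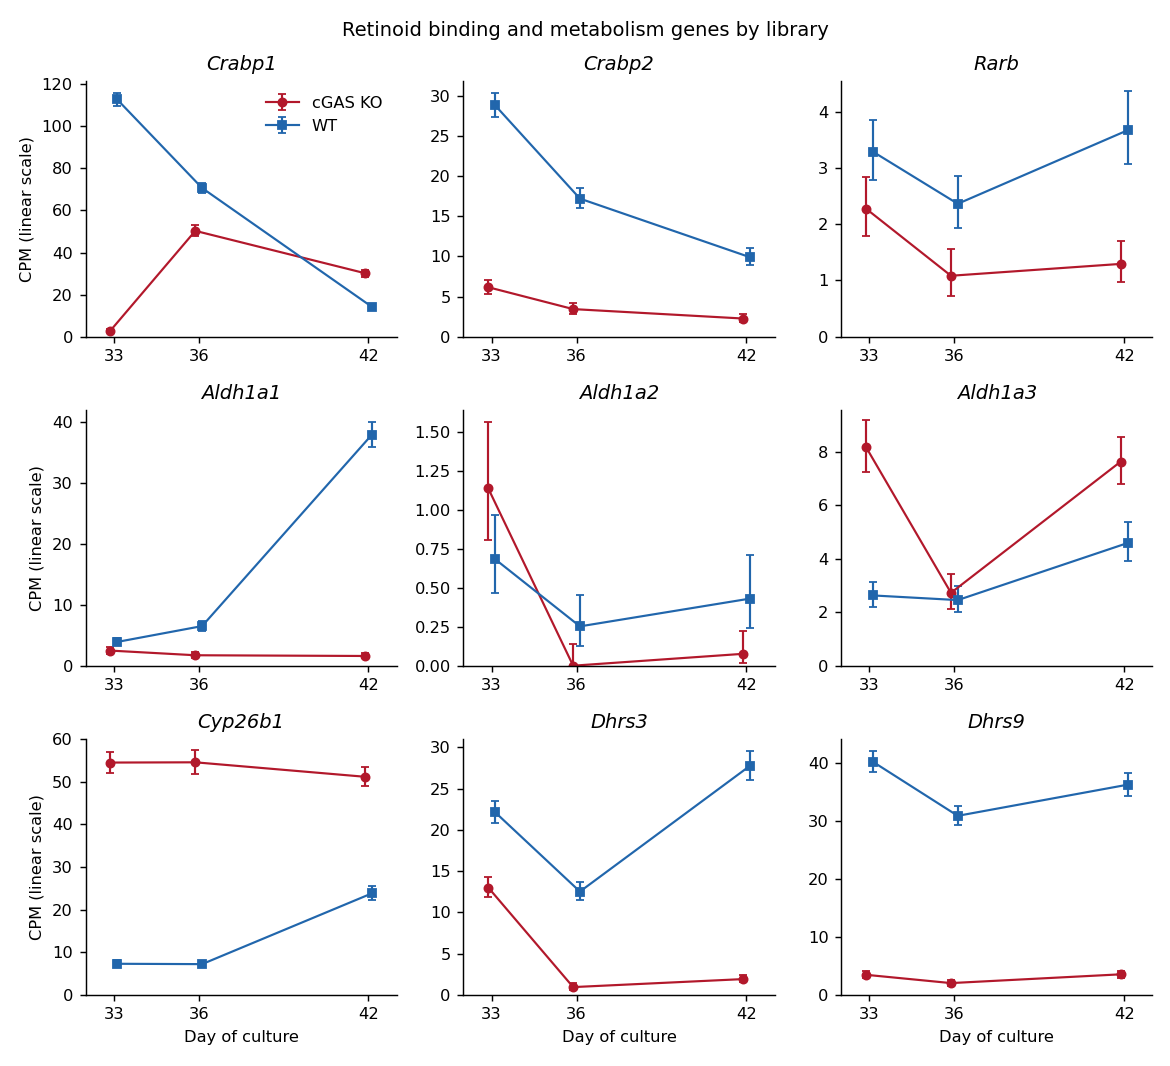
Level of each of the 9 genes in CPM (vertical axis, linear from 0, scaled per panel) by day of culture in KO (red circles) and WT (blue squares) cells; each point is 1 library, bars are exact 95% counting intervals and lines join the days of a genotype. Crabp1 crosses between days 36 and 42, Cyp26b1 in KO cells stays at 51.2 to 54.6 CPM, and Aldh1a1 reaches 38.0 CPM in WT day 42.

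Rarb (ENSMUSG00000017491, chromosome 14, 16430839 to 16819156, minus strand) encodes the retinoic acid receptor beta, and its promoter holds the DR5 pair shown above. It was at 2.27, 1.08 and 1.29 CPM in KO cells (76, 29 and 51 counts) and at 3.29, 2.36 and 3.67 CPM in WT cells (154, 103 and 128 counts). The genotypes did not overlap, but the lowest WT library, day 36, and the highest KO library, day 33, did not differ beyond counting error. KO cells were 1.45-fold lower on day 33 (1.09 to 1.93), 2.18-fold lower on day 36 (1.43 to 3.42) and 2.84-fold lower on day 42 (2.04 to 4.01). The mean log2 difference, -1.03, was just past 2-fold and fell short of it without KO day 36 (-0.81), KO day 42 (-0.94), WT day 33 (-0.97) or WT day 42 (-0.90). Top2b lies on the opposite strand and shares 1793 of the 3108 bases of the Rarb transcript that was counted. Top2b was at 283 to 298 CPM in KO cells and 267 to 294 CPM in WT cells. The library kit was stranded per the labels, but whether the counting used strand is not stated, so the Rarb values are uncertain.

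Aldh1a1 (ENSMUSG00000053279, chromosome 19, 20492715 to 20643465, plus strand) encodes an enzyme that turns retinaldehyde into retinoic acid. It was at 2.48, 1.72 and 1.60 CPM in KO cells (83, 46 and 63 counts) and at 3.91, 6.51 and 38.0 CPM in WT cells (183, 284 and 1325 counts). All KO libraries lay below all WT libraries, the WT levels were higher on each later day, and neighbouring KO levels did not differ beyond counting error. KO cells were 1.57-fold lower on day 33 (1.21 to 2.07), 3.79-fold lower on day 36 (2.77 to 5.30) and 23.8-fold lower on day 42 (18.5 to 31.1). The mean log2 difference was -2.35, and -1.39 without WT day 42. In WT cells day 42 was 9.72-fold above day 33 (8.32 to 11.4), whereas in KO cells day 42 was 1.55-fold below it (1.11 to 2.19). Aldh1a7, a closely related gene, was at 3.38, 2.09 and 1.95 CPM in KO cells and at 5.49, 8.69 and 57.7 CPM in WT cells. Some reads could have been split between Aldh1a1 and Aldh1a7, which was not tested, so the value of each alone is uncertain.

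Aldh1a2 (ENSMUSG00000013584, chromosome 9, 71215789 to 71296243, plus strand) encodes the enzyme that makes most of the retinoic acid of the early embryo. It was at 1.14, 0 and 0.0761 CPM in KO cells (38, 0 and 3 counts) and at 0.683, 0.252 and 0.430 CPM in WT cells (32, 11 and 15 counts). KO day 33 was the highest library and the later KO libraries the lowest, at or under a floor of 3 counts per library, so the genotypes overlapped. KO cells were 1.66-fold higher on day 33 (1.01 to 2.75). On day 36 they were 2.25-fold lower when the 0 counts were set to the floor, and the exact interval reaches down to 1.54-fold. On day 42 they were 5.65-fold lower with a counting interval of 1.60 to 30.5. Its place among the genes at least 2-fold lower on average rests on these low counts: the mean log2 difference, -1.24, became -0.28 when KO day 36 was left out, -0.92 when KO day 42 was, -0.93 when WT day 33 was and -2.52 when KO day 33 was.

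Aldh1a3 (ENSMUSG00000015134, chromosome 7, 66390890 to 66427517, minus strand) encodes the third enzyme that forms retinoic acid. It was at 8.17, 2.72 and 7.63 CPM in KO cells (273, 73 and 301 counts) and at 2.63, 2.45 and 4.59 CPM in WT cells (123, 107 and 160 counts). KO days 33 and 42 were the highest libraries and did not differ beyond counting error, while KO day 36 lay among the WT libraries. KO cells were 3.11-fold higher on day 33 (2.50 to 3.88) and 1.66-fold higher on day 42 (1.37 to 2.03), and on day 36 the ratio was 1.11 with an interval of 0.813 to 1.51. The mean log2 difference was 0.83, and it passed 2-fold without KO day 36 (1.34) or WT day 42 (1.11).

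Cyp26b1 (ENSMUSG00000063415, chromosome 6, 84571414 to 84593908, minus strand) encodes a cytochrome P450 that inactivates retinoic acid. It was at 54.5, 54.6 and 51.2 CPM in KO cells (1823, 1463 and 2019 counts) and at 7.28, 7.20 and 23.8 CPM in WT cells (341, 314 and 831 counts). All KO libraries lay above all WT libraries, and neighbouring KO levels did not differ beyond counting error. KO cells were 7.49-fold higher on day 33 (6.67 to 8.43), 7.58-fold higher on day 36 (6.71 to 8.59) and 2.15-fold higher on day 42 (1.98 to 2.33). The smaller ratio on day 42 went with a WT level 3.27-fold above that of day 33 (2.88 to 3.72). The mean over days was 53.5 ± 1.95 CPM in KO cells and 12.8 ± 9.57 CPM in WT cells (SD, n = 3 each). Cyp26b1 was the 1 gene among the 9 with more than 1 transcript and counts high enough to compare them. Crabp1, Rarb, Aldh1a1, Aldh1a2 and Dhrs9 had 1 transcript each. Crabp2, Aldh1a3 and Dhrs3 had more but fell below 100 counts in at least 1 library. ENSMUST00000168003 took 60.1% of its counts on average in KO cells and 60.1% in WT cells (exact two-sided permutation test, p = 0.4, with 0.1 the smallest p that 3 against 3 libraries allow). The share was nearly the same number in all 6 libraries, so the deposited estimates hold little measurement of the split between the 2 transcripts.

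Dhrs3 (ENSMUSG00000066026, chromosome 4, 144892827 to 144928209, plus strand) encodes a short-chain dehydrogenase that reduces retinaldehyde back to retinol. It was at 13.01, 0.933 and 1.90 CPM in KO cells (435, 25 and 75 counts) and at 22.2, 12.5 and 27.8 CPM in WT cells (1037, 546 and 968 counts). KO days 36 and 42 were the lowest libraries, and KO day 33 overlapped with WT day 36 within counting error. KO cells were 1.70-fold lower on day 33 (1.52 to 1.91), 13.4-fold lower on day 36 (8.99 to 20.9) and 14.6-fold lower on day 42 (11.5 to 18.7). Within KO cells day 36 was 13.9-fold below day 33 (9.32 to 21.8). The summed macrophage markers were also lower on days 36 and 42 than on day 33 in KO cells, as given above, but in WT cells the sum was lowest on day 42, when Dhrs3 was highest; their part in the levels of Dhrs3, and in those of Aldh1a2, was not tested.

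Dhrs9 (ENSMUSG00000027068, chromosome 2, 69380445 to 69404533, plus strand) encodes a short-chain dehydrogenase that can oxidise retinol to retinaldehyde. It was at 3.44, 2.01 and 3.53 CPM in KO cells (115, 54 and 139 counts) and at 40.1, 30.8 and 36.2 CPM in WT cells (1879, 1344 and 1262 counts). All KO libraries lay far below all WT libraries, and both genotypes had their lowest level on day 36. KO cells were 11.7-fold lower on day 33 (9.66 to 14.2), 15.3-fold lower on day 36 (11.7 to 20.5) and 10.3-fold lower on day 42 (8.61 to 12.3). The mean over days was 2.99 ± 0.85 CPM in KO cells and 35.7 ± 4.67 CPM in WT cells (SD, n = 3 each). Day 36 was 1.71-fold below day 33 in KO cells (1.22 to 2.41) and 1.302-fold below it in WT cells (1.21 to 1.398), and day 42 against day 33 gave a ratio of 1.02 in KO cells (0.794 to 1.32) and 0.902 in WT cells (0.839 to 0.969).

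Changes with time were set side by side in the 2 genotypes. Day 42 stood at least 2-fold above day 33 for Crabp1 in KO cells and at least 2-fold below for Crabp2, Aldh1a2 and Dhrs3, against 2.98% higher and 5.07% lower among all genes tested. In WT cells day 42 stood at least 2-fold above day 33 for Aldh1a1 and Cyp26b1 and at least 2-fold below for Crabp1 and Crabp2, against 4.65% and 3.17%. In KO cells Crabp1 was already at least 2-fold above its day 33 level on day 36, and Rarb, Aldh1a2, Aldh1a3 and Dhrs3 at least 2-fold below theirs (2.01% higher and 4.67% lower among all genes tested). Between days 36 and 42 of KO culture Aldh1a3 was at least 2-fold higher on the log2 CPM scale and 0 of the 9 lower (1.82% and 1.3% among all genes tested). Aldh1a2 also passed 2-fold on that scale, but at 0 and 3 counts no fold is given, and Dhrs3 lay at the threshold with a log2 difference of 0.99 (a ratio of 2.04, interval 1.28 to 3.35). Between days 33 and 36 of WT culture 1 of the 9 genes, Aldh1a2 at 32 and 11 counts, differed that much (0.696% higher and 2.03% lower). Between days 36 and 42 of WT culture Aldh1a1, Cyp26b1 and Dhrs3 were at least 2-fold higher and Crabp1 at least 2-fold lower (6.7% and 3.36%). With 1 library per genotype and day, these differences have no replicate check.

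Levels per transcript length, taken as the RPKM that the authors deposited, ordered the genes differently in the libraries. In KO cells Cyp26b1 led on day 33 with 5.90 RPKM, and Crabp1 led on days 36 and 42 with 34.1 and 21.1 RPKM, followed by Cyp26b1 with 6.14 and 5.96 RPKM. In WT cells Crabp1 led on days 33 and 36 with 71.5 and 42.7 RPKM, and on day 42 Aldh1a1 with 10.01 RPKM stood just above Crabp1 with 9.56 RPKM. Aldh1a2 was the lowest of the 9 in every library, between 0.00447 and 0.263 RPKM in KO cells and between 0.0553 and 0.153 RPKM in WT cells. Crabp1 made up 43.03, 96.0 and 95.7% of the summed RPKM of both binding proteins in KO cells and 86.5, 87.1 and 70.2% in WT cells. Among the 3 Aldh1a genes, Aldh1a3 took 50.9, 41.3 and 67.4% of the summed RPKM in KO cells and 20.5, 13.9 and 5.06% in WT cells, with Aldh1a1 taking 34.7, 58.1 and 31.4% in KO cells and 68.7, 83.1 and 94.0% in WT cells. Among these 3 genes the leading one by RPKM was Aldh1a3 on days 33 and 42 in KO cells and Aldh1a1 in the other libraries. The closely related Aldh1a7 is left out of these shares. It had 113, 56 and 77 counts in KO cells, against 83, 46 and 63 for Aldh1a1. Reads split between Aldh1a7 and Aldh1a1 could change the order, so it is uncertain.

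**Figure D3:**
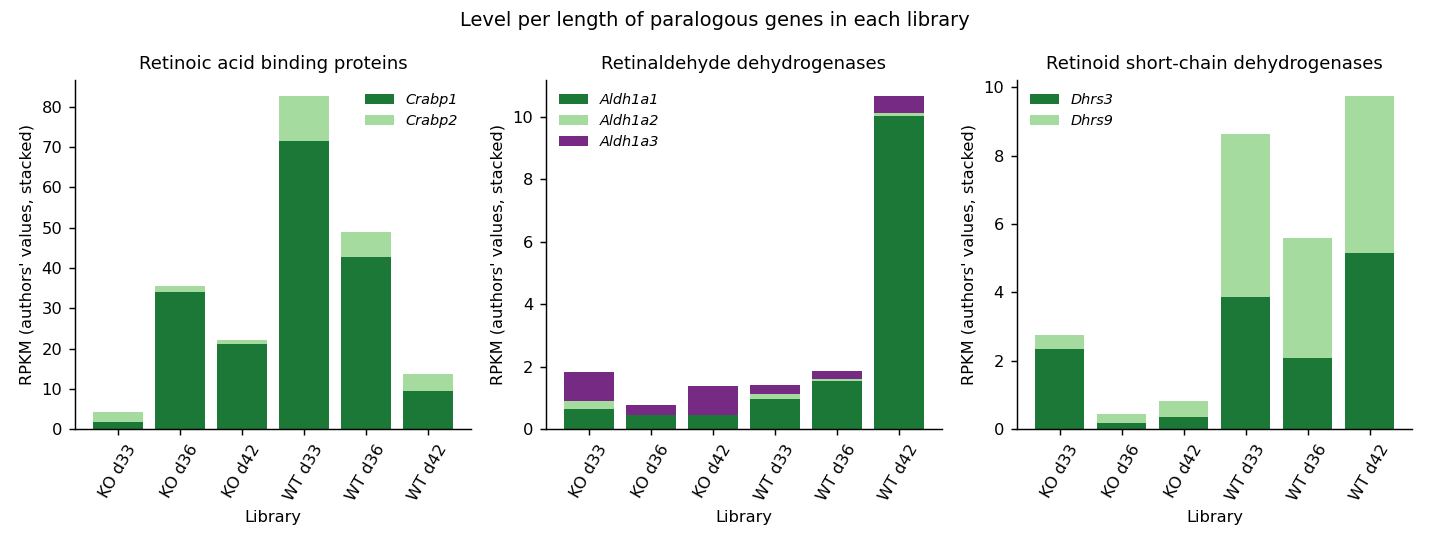
Stacked RPKM as deposited by the authors (vertical axis, linear) for related genes in each library, KO libraries left and WT libraries right, days written as d33, d36 and d42. The summed binding protein level is 4.29, 35.5 and 22.1 RPKM in KO cells and 82.6, 49.0 and 13.6 RPKM in WT cells, and the summed Aldh1a level is 0.773 to 1.82 RPKM in KO cells and 1.41 to 10.7 RPKM in WT cells.

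The genes closest to Crabp1, Crabp2 and Dhrs9 in their pattern over the 6 libraries were found by the root mean square difference of centred log2 CPM. For Crabp1, whose own spread by this measure was 1.74, they were C77370 at 0.67, Upk1b, 1 of the 5 mesothelial markers above, at 0.71 and the amino acid transporter gene Slc6a15 at 0.81. For Crabp2, with a spread of 1.26, they were Ceacam1 at 0.14, Prdm1 at 0.21 and Rgs8 at 0.26, genes whose levels lay between 0.0254 and 0.359 CPM in KO cells and 0.344 and 1.43 CPM in WT cells. For Dhrs9, with a spread of 1.82, they were the Y-linked genes Uty at 0.30 and Eif2s3y at 0.34 and the purinergic receptor gene P2rx3 at 0.35. Uty was at 2.90, 2.91 and 2.69 CPM in KO cells and at 31.99, 29.9 and 30.8 CPM in WT cells.

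Of 58 other retinoid pathway genes on 5 lists, 38 passed the filter on low counts, and 2 were higher and 4 lower in KO cells than in WT cells by edgeR's quasi-likelihood test at an adjusted p below 0.05. Of the 4 lower genes, Adh1 and Hoxd4 had at most 8 counts in any KO library. They passed the filter only through the WT libraries, where they are high, so nothing is inferred from their direction. Among all genes tested 8.72% were called, 4.07% higher and 4.65% lower. The median log2 fold change was 0.04 over the 38 genes and -0.01 over all genes. The calls fell among the enzymes that interconvert retinol and retinaldehyde, where 3 of 10 fell, and among genes known to respond to retinoic acid, where 2 rose and 1 fell of 10. No call was made among 13 receptors and coregulators, 4 uptake, storage and transport genes or 1 further synthesis enzyme, in which 1, 1 and 0 genes had an unadjusted p below 0.05 by edgeR and 0 were called by DESeq2. With day as a factor in the edgeR fit, Ppard of the receptors and coregulators was called.

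The called enzymes were 2 alcohol dehydrogenases that can oxidise retinol, Adh1 and Adh7, and the retinol dehydrogenase Rdh5. Adh7 was at 1.56, 0.784 and 0.735 CPM in KO cells and at 14.1, 8.14 and 12.0 CPM in WT cells. Its log2 fold change was -3.47 ± 0.37 (SE, edgeR adjusted p = 0.00897). Adh1 had 4, 2 and 1 counts in KO cells and 117, 63 and 104 counts in WT cells, a KO level 20.9-fold lower on day 33 (7.94 to 77.9). Its fitted log2 fold change was -4.96 ± 0.52 (edgeR adjusted p = 0.00897), a size that depends on the prior count at these levels. Rdh5, known from the retinal pigment epithelium, was at 0.509, 0.411 and 0.583 CPM in KO cells and at 1.41, 1.42 and 1.46 CPM in WT cells (log2 fold change -1.50 ± 0.21, edgeR adjusted p = 0.0139). All 3 KO libraries lay below all 3 WT libraries for each of these genes, which were picked by a test on the same libraries. Among the 38 pathway genes such a separation was found downward in 6 and upward in 6, against 17.1% and 17.2% of all genes tested. Of the other named enzymes, Rdh10, which makes retinaldehyde in the embryo, averaged 23.4 ± 2.99 CPM in KO cells and 17.3 ± 4.43 CPM in WT cells (SD, n = 3 each, edgeR adjusted p = 0.218).

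Among the responsive genes, the orphan nuclear receptor genes Nr2f1 and Nr2f2 rose and the homeobox gene Hoxd4 fell. Nr2f1 was at 40.3, 41.5 and 36.0 CPM in KO cells and at 7.97, 9.84 and 12.8 CPM in WT cells, with a log2 fold change of 1.95 ± 0.18 (edgeR adjusted p = 0.00824). Nr2f2 was at 68.6, 59.3 and 49.3 CPM in KO cells and at 37.7, 38.3 and 38.2 CPM in WT cells (log2 fold change 0.63 ± 0.13, edgeR adjusted p = 0.0347). Hoxd4 was at 0.239, 0.112 and 0.127 CPM in KO cells and at 1.05, 0.711 and 0.831 CPM in WT cells (log2 fold change -2.41 ± 0.35, edgeR adjusted p = 0.0148). Its counts were 8, 3 and 5 in KO cells and 49, 31 and 29 in WT cells, and it passed the filter through the WT libraries alone. The groups did not overlap for any of these genes, which the same test had picked. The calls rested on few libraries: none of the 6 remained without KO day 36, Nr2f1 alone remained without KO day 42, and Adh1, Adh7 and Nr2f1 remained without WT day 33. Nr2f2 was called in 1 of the 6 fits that left out a library, being lost also without WT day 36 and without WT day 42. Without KO day 36 the fold changes stayed near their values: the log2 fold change was 1.91 for Nr2f1, 0.64 for Nr2f2, -1.38 for Rdh5, -2.23 for Hoxd4, -3.31 for Adh7 and -4.98 for Adh1. Over all fits that left out 1 library, Nr2f1 ranged from 1.79 to 2.14, Nr2f2 from 0.51 to 0.75 and Rdh5 from -1.62 to -1.38. In these fits Hoxd4 ranged from -2.81 to -2.23, Adh7 from -3.90 to -3.26 and Adh1 from -5.55 to -4.49.

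The receptors that pair to read retinoic acid were not called. Rara averaged 40.0 ± 4.11 CPM in KO cells and 35.6 ± 5.32 CPM in WT cells, and Rarg 88.9 ± 11.7 CPM in KO cells and 88.4 ± 14.0 CPM in WT cells (SD, n = 3 each; edgeR adjusted p = 0.482 for Rara and 0.977 for Rarg). Rxra averaged 83.8 ± 6.32 CPM in KO cells and 87.9 ± 20.1 CPM in WT cells (edgeR adjusted p = 0.834). The fatty acid and retinoic acid binding protein Fabp5 averaged 9.10 ± 1.32 CPM in KO cells and 9.17 ± 2.80 CPM in WT cells, and Cyp1b1, a cytochrome P450 that can form retinoic acid in chick embryos, 467 ± 70.5 CPM in KO cells and 458 ± 179 CPM in WT cells (edgeR adjusted p = 0.982 for Fabp5 and 0.961 for Cyp1b1). Stra6, the retinol uptake receptor, the breakdown enzyme gene Cyp26a1 and the plasma carrier gene Rbp4 did not pass the filter. Stra6 was at 0 to 0.0761 CPM in KO cells and 0.107 to 0.183 CPM in WT cells, Cyp26a1 had at most 1 count in each library, and Rbp4 was at 0.928, 0.0746 and 0.0761 CPM in KO cells and 0.256, 0.138 and 0.143 CPM in WT cells.

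**Figure D4:**
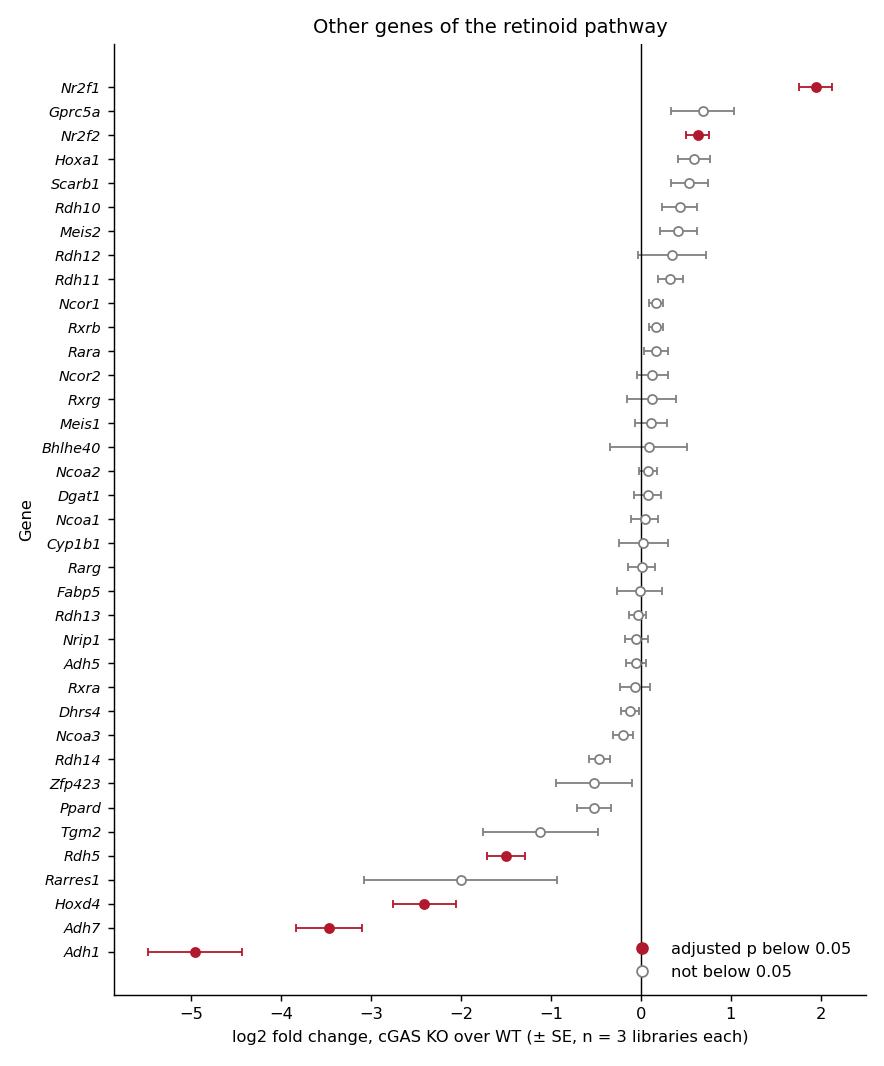
Log2 fold change of KO over WT with its SE (horizontal axis, n = 3 libraries per genotype) for the other retinoid pathway genes tested and reported, ordered by size; filled red points have an edgeR adjusted p below 0.05. Nr2f1 at 1.95 and Nr2f2 at 0.63 are the called genes above 0, and Rdh5, Hoxd4, Adh7 and Adh1 between -1.50 and -4.96 are those below.

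Day 42 was compared with day 33 over both genotypes in the same 38 genes, with genotype as a covariate and 2 residual degrees of freedom. No gene was called by edgeR, among the 38 or among all 17233 genes tested (0.0% called). An unadjusted p below 0.05 was found for 5 of the 38 genes and for 2018 of all genes, and DESeq2 called 3 of the 38, Bhlhe40, Ppard and Tgm2, and 296 of all genes.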

How the data were processed

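RNA sequencing of KO and WT MEFs on 3 days was analysed from the deposited tables, with 24 columns for 6 groups. The gene and transcript tables that the authors deposited hold estimated counts, which are fractional and unscaled, and the gene table adds RPKM, per the file headers. Another 24 columns, of transcript RPKM, were left out. Builds and tools in the submitters' processing notes are mm10, Bowtie2 2.2.1 and limma 3.18.13, with no role stated. The sources used here do not give the counting program, its annotation or its strand setting. Within a group the 4 columns agreed within sampling noise (mean chi-square per degree of freedom 0.832 to 0.843 over genes with at least 80 counts, against 11.7 to 60.8 between WT day 33 and other groups). They were summed, rounded and counted as 1 library. The labels do not call the days separate cultures, so p-values reflect how these 6 libraries scatter. With genotype as the single term of the main fit, that scatter holds change between days and passages together with any technical difference between libraries. It does not measure the spread between independent cultures.

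In R 4.3.3, edgeR 4.0.16 (TMM factors 0.927 to 1.08, filterByExpr, quasi-likelihood test with robust estimation, genotype as the single term) was fitted to 17233 genes; p-values were adjusted by Benjamini-Hochberg and called below 0.05. The SE was taken as the size of the log2 fold change over the root of its F statistic. The test was checked on simulated counts of independent libraries with no day effect. This setting cannot check the p-values if the days share a culture. CPM are scaled by TMM, log2 CPM had a prior count of 2, and ratios of single libraries have exact 95% intervals. DESeq2 1.42.0, limma-voom (limma 3.58.1), other scalings, filters and prior counts, left-out libraries, days and columns, and a replicate block were alternatives. Gene positions are from GENCODE M21 on GRCm38. The members, gene lists and tests were chosen with earlier results of these data known. Named genes are the 9 members, up to 8 called pathway genes by adjusted p, 10 pathway genes named whatever their values (1 of them is not reported here), and the 3 genes of nearest pattern to Crabp1, Crabp2 and Dhrs9 (no predicted names). Aldh1a7, Top2b, Mb21d1, Xist, Ddx3y, Meis2 and the genes called by DESeq2 are named outside that rule, after their values were seen.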

Additional observations from a re-analysis of the deposited data

Results flagged for a closer look

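Crabp1 and Aldh1a1 moved in opposite directions with time in KO and WT cells, on both later days against day 33. Crabp1 changed by 4.12 on the log2 CPM scale between days 33 and 36 in KO cells and by -0.674 in WT cells, and by 3.38 in KO cells and -2.99 in WT cells between days 33 and 42. Aldh1a1 changed by -0.519 in KO cells and 0.729 in WT cells between days 33 and 36, and by -0.62 in KO cells and 3.26 in WT cells between days 33 and 42. The fall of Aldh1a1 in KO cells by day 36 lay within counting error (1.45-fold lower, exact 95% interval 0.997 to 2.12). With 1 library per genotype and day the difference between the genotypes was not tested. The closely related Aldh1a7 showed the same pattern, and whether the 2 genes shared reads was not tested, so the Aldh1a1 values carry that uncertainty.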

How the results depend on the processing

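The number of other pathway genes called between KO and WT, 6, ranged over 0 to 7 when single libraries were left out. KO day 36 left out gave 0, KO day 42 gave 1, WT day 33 gave 3, WT day 36 gave 5, and KO day 33 or WT day 42 gave 7. The genes called changed too: without WT day 42 they included Meis2 and Rdh10 and not Nr2f2. Leaving out both libraries of day 36 gave 0, those of day 33 gave 5 and those of day 42 gave 4. Over all genes the number of calls was 1503; it was 24 with KO day 36 left out, 68 with KO day 42, 254 with WT day 33, 738 with WT day 36, and 2855 by DESeq2. With both libraries of a day left out it was 429 for day 33, 3 for day 36 and 539 for day 42. Treating the 24 columns as separate libraries gave 19 pathway genes and 8173 genes in all, and adding the replicate number as a block gave 18 and 7846. Scaled to their totals, columns of the same number did not deviate together across groups (mean correlation 0.00237). Since columns differed by no more than sampling noise, this cannot tell whether the numbers pair samples. The totals did follow the number: columns numbered 3 held 1.023 to 1.026 times the counts of those numbered 1 in every group. DESeq2 called 3 pathway genes between days 42 and 33, against 0 by edgeR. The number of members at least 2-fold apart between KO and WT was 8, and 5 to 8 with 1 library left out, the 5 being without WT day 33, when Crabp1, Rarb and Aldh1a2 were within 2-fold. In the alternatives that were run no called result changed direction. Values for single genes were held against the spread between libraries or the counting error of the summed libraries, a wide margin for Crabp1 and Aldh1a2. A single column holds fewer counts and has a wider counting error of its own. A move with 1 column a group therefore does not show that columns differ. Of these values 222 kept their call or moved by less than the margin, 28 lost their call and 7 moved beyond it. Among these 7, the log2 difference of day 42 against day 33 changed sign for Aldh1a2 in WT cells (0.52 with 1 column a group, against -0.61), for Dhrs9 in KO cells (-0.40 with 1 column a group, against 0.03) and for Cyp26b1 in KO cells (0.03 by library totals, against -0.09); Aldh1a3 in KO cells, which did not move beyond it, also changed sign (0.02 by library totals, against -0.10). Low counts limit Aldh1a2, Adh1 and Hoxd4, and 1 library for each genotype and day limits every statement on time.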
